A study of Arabidopsis thaliana with 4 samples.

Results

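The ATG8 family and ATG3 were examined in whole Arabidopsis thaliana seedlings in which the embryo regulator LEAFY COTYLEDON1 (LEC1) had been switched on. Members were the probe sets of the array that the platform annotation assigned to 1 gene with the symbol ATG3 or APG8H or a symbol starting with ATG8 or APG8. This gave 10 probe sets, 1 for each of 10 genes, of 22746 probe sets that were not array controls. They stood for ATG3 (AT5G61500), APG8A (AT4G21980), ATG8B (AT4G04620), ATG8C (AT1G62040), ATG8D (AT2G05630), ATG8E (AT2G45170), ATG8F (AT4G16520), ATG8G (AT3G60640), ATG8H (AT3G06420) and APG8H (AT3G15580). The RefSeq gene table also lists APG8H as ATG8I, so APG8H and ATG8H are different genes.

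ATG8 is a small ubiquitin-like protein of autophagy, the route by which cytoplasm and organelles are enclosed in a membrane and delivered to the vacuole. The protease ATG4 trims most ATG8 precursors to a terminal glycine, ATG7 activates them, and ATG3 passes them to the lipid phosphatidylethanolamine, helped by a complex of ATG5, ATG12 and ATG16. Lipid-bound ATG8 then sits on the growing membrane and holds cargo receptors. In Arabidopsis ATG8H and ATG8I form a separate branch whose proteins already end in the glycine.

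All 4 arrays came from plants of the Columbia ecotype that carried pER8-LEC1, a transgene in which estradiol turns on LEC1. The LEC1 induced group spent 4 days from germination on 0.01 mM estradiol. The control group, with the same transgene and otherwise the same conditions, spent 4 days on 0.1% DMSO. No DMSO percentage is recorded for the LEC1 induced group. Each group had 2 biological replicates of whole seedlings, and no array of transgene-free plants on estradiol was analysed here. The labels do not say whether the replicates were separate cultures or sowings, so p-values measure the spread between these samples only. Because whole seedlings were collected, fewer cells of a type and less RNA per cell cannot be told apart.

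The deposited arrays were not on a common level, with medians of 39.4 and 22.3 in LEC1 induced seedlings and 20.0 and 15.5 in controls, so signals below were quantile normalized unless called deposited. Of 3 seed storage and oil body markers named on the array, of 11 listed, all 3 rose, and their summed signal was 15540 and 14065 in LEC1 induced seedlings and 39.1 and 45.3 in controls. Of 3 green tissue markers named, of 8 listed, all 3 had a lower mean in LEC1 induced seedlings. LHCB4.1 and PORB passed the test described below. RCA, which did not pass, had a mean signal of 1183 in LEC1 induced seedlings and 2927 in controls. The summed signal of the 3 was 2914 and 3970 in LEC1 induced seedlings and 7636 and 8424 in controls. For the array's actin controls, the 3' probe set was brighter than the 5' probe set by a ratio that was 1.96 and 1.94 in LEC1 induced seedlings and 3.28 and 3.01 in controls. The same ratio for the GAPDH controls was 0.932 and 0.911 in LEC1 induced seedlings and 0.773 and 0.890 in controls, so it differed in the opposite direction. The part of these differences in tissue markers and control ratios in the results below was not tested. None of the 8 listed root markers had a probe set named for it alone.

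Across 14433 probe sets that passed a filter on dim signals, 828 (5.74%) differed between LEC1 induced and control seedlings in limma, a linear model with moderated variances, at a Benjamini-Hochberg adjusted p under 0.05. Of these, 408 (2.83% of those tested) were higher and 420 lower. The split depended on scaling, with 494 higher and 97 lower without normalization, where the median of all probe sets shifted by 0.62 on the log2 scale, and with 447 higher and 962 lower under median centring, where it shifted by -0.14. All 10 ATG8 and ATG3 probe sets passed the filter.

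No ATG8 or ATG3 probe set passed the test, although most had higher signals in LEC1 induced seedlings. The count was 0 of 10 in limma, against 5.74% of all probe sets tested. At an unadjusted p under 0.05 in limma there were 4 of 10 (ATG3, ATG8D, APG8H and ATG8C), against 26.5%. The unadjusted count was 8 without normalization, against 23.2% of all probe sets tested in that setting. It was also 8 with the replicate number as a block, against 35.2%. It moved in both directions when single arrays were left out. The methods' t-test, the test named in the design text, also called 0 of 10, against 2.74% of all probe sets tested at a false discovery rate of 0.2. None had an unadjusted p under 0.05 in it, against 17.3%. In 9 of the 10 the mean was higher in LEC1 induced seedlings, ATG8B being the exception, against 49.99% of all probe sets tested. In 8 of the 10, all but ATG8F and ATG8B, both LEC1 induced arrays lay above both control arrays, a pattern shown by 29.3% of all probe sets tested. The median log2 change of the 10 was 1.27, against -7.93e-05 over all probe sets tested, whose 25th and 75th percentiles were -0.59 and 0.58. The median of the 10 was 0.69 without LEC1 induced replicate 1, 0.86 without control replicate 2 and 1.64 without LEC1 induced replicate 2, and it was 1.91 without normalization, where the median of all probe sets was 0.62. Setting signals under the dim limit to that limit gave a median of 1.03 for the 10. The dim limit was a normalized signal of 13.9, the 40th percentile.

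**Figure D1:**
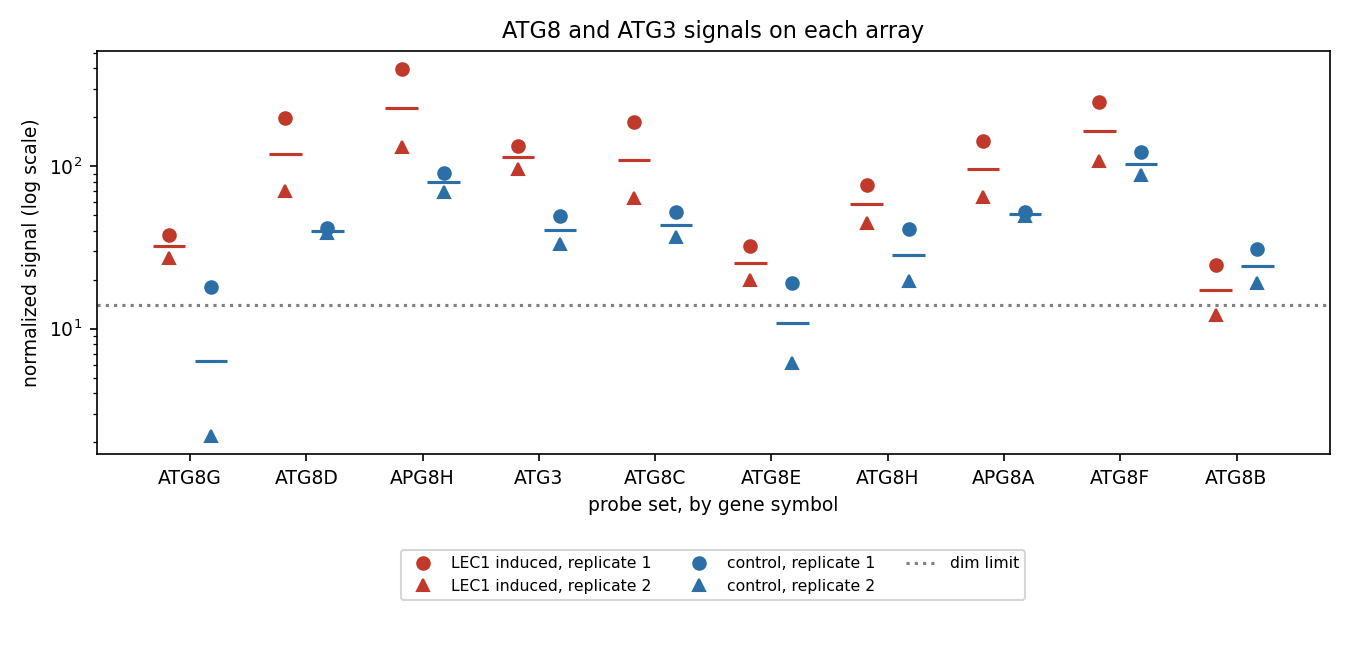
Normalized signal (log scale) of the 10 probe sets on each array, with LEC1 induced arrays in red left of control arrays in blue, circles for replicate 1, triangles for replicate 2 and short lines for the mean of the log2 signals. The dotted line is the dim limit of 13.9, and the 2 groups overlap for ATG8F and ATG8B.

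ATG3, the conjugating enzyme that hands ATG8 to its lipid, had the least spread between replicates relative to its change. Its signal was 134 and 96.4 in LEC1 induced seedlings and 49.7 and 33.3 in controls. The groups did not overlap, and the lower induced array was well above the higher control array. The mean log2 signal was 6.83 ± 0.33 in LEC1 induced seedlings and 5.35 ± 0.41 in controls (SD, n = 2 each). The log2 change was 1.48 ± 0.36 SE, or 2.79-fold, with a 95% interval from 0.60 to 2.36, and it did not pass (limma adjusted p = 0.0669). Between the arrays numbered 1 the change was 1.43, and between those numbered 2 it was 1.53. Of all probe sets tested, 93.4% had a lower change than ATG3.

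Among the ATG8 genes whose products need trimming by ATG4, ATG8D had signals of 200 and 70.7 in LEC1 induced seedlings and 41.7 and 38.6 in controls. The control arrays were close together, while the induced arrays differed from each other almost as much as the induced and control means did. The log2 change was 1.57 ± 0.51 SE, or 2.96-fold (limma adjusted p = 0.121). ATG8C had 186 and 63.5 in LEC1 induced seedlings and 52.0 and 36.9 in controls, and its induced arrays differed from each other by more than the group means did. Its change was 1.31 ± 0.54 SE, with a 95% interval from 0.00093 to 2.63 (limma adjusted p = 0.188). For both genes replicate 1 of the induced seedlings was the high array, and replicate 2 was nearer to the controls.

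APG8A had 144 and 64.7 in LEC1 induced seedlings and 52.0 and 49.5 in controls. Its control arrays were the closest pair of the 10 genes, with an SD of 0.050 on the log2 scale, against 0.82 between its induced arrays. The change was 0.93 ± 0.44 SE (limma adjusted p = 0.237). ATG8F had 249 and 108 in LEC1 induced seedlings and 122 and 88.3 in controls, so that 1 induced array lay between the 2 control arrays. Its change was 0.66 ± 0.47 SE, with a 95% interval from -0.46 to 1.79 (limma adjusted p = 0.404).

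ATG8G and ATG8E were close to the dim limit in controls. ATG8G had 37.9 and 27.3 in LEC1 induced seedlings and 18.1 and 2.18 in controls, and its deposited signal on the lowest array was 1.6. The fitted log2 change of 2.36 ± 1.00 SE was the largest of the 10 and also had the largest error (limma adjusted p = 0.198). With the dim control array set to the limit, its level was 2.03-fold higher in LEC1 induced seedlings, which is an estimate and not a lower bound. The interval of limma for ATG8G ran from -0.058 to 4.77 on the log2 scale. Its log2 change was 0.83 without control replicate 2. ATG8E had 32.2 and 19.9 in LEC1 induced seedlings and 19.1 and 6.18 in controls, so the lower induced array and the higher control array were nearly equal. Its log2 change was 1.22 ± 0.67 SE (limma adjusted p = 0.294), with an interval of limma from -0.40 to 2.83. With the dim control array at the limit, the level of ATG8E was an estimated 1.55-fold higher in LEC1 induced seedlings. Its log2 change ranged from 0.40 without control replicate 2 to 2.03 without control replicate 1.

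ATG8B was the 1 member with a lower mean in LEC1 induced seedlings, and its groups overlapped. It had 24.6 and 12.1 in LEC1 induced seedlings, the lower being under the dim limit, and 31.1 and 19.1 in controls. The change was -0.49 ± 0.52 SE, with a 95% interval from -1.75 to 0.76 (limma adjusted p = 0.578). Its sign turned without normalization, to 0.26, and without LEC1 induced replicate 2, to 0.016. ATG8B was singled out after the values were seen. Its change was below that of each of the other 9 members by 1.16 (ATG8F) to 2.85 (ATG8G) on the log2 scale. The 2.85 includes the dim control array of ATG8G, with a deposited signal of 1.6. With dim signals set to the limit, the log2 changes were -0.40 for ATG8B and 1.02 for ATG8G. For all 9 the difference had the same sign between the arrays numbered 1 and between those numbered 2. A common scaling factor of an array cancels in such differences, which were not tested. Only the lowest or highest member can lie on 1 side of all the rest, and ATG8B was picked as the lowest, so this is no separate result.

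The 2 members of the branch that ends in the glycine were both higher, and neither passed. APG8H (ATG8I) had 397 and 131 in LEC1 induced seedlings and 91.3 and 69.8 in controls. The groups did not overlap, and induced replicate 1 was again far above induced replicate 2. Its change was 1.51 ± 0.55 SE, or 2.85-fold (95% interval 0.19 to 2.83, limma adjusted p = 0.147). ATG8H had 76.1 and 44.9 in LEC1 induced seedlings and 40.9 and 19.7 in controls. Here the lower induced array was just above the higher control array. The change was 1.04 ± 0.47 SE, or 2.06-fold (95% interval -0.10 to 2.18, limma adjusted p = 0.221), and it ranged from 0.51 without control replicate 2 to 1.57 without control replicate 1. The changes of the branch lay within the range of the other ATG8 genes, from -0.49 (ATG8B) to 2.36 (ATG8G). That range is wide, and ATG8G was close to the dim limit in controls. Whether the branch differed from the other ATG8 genes was not tested.

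**Figure D2:**
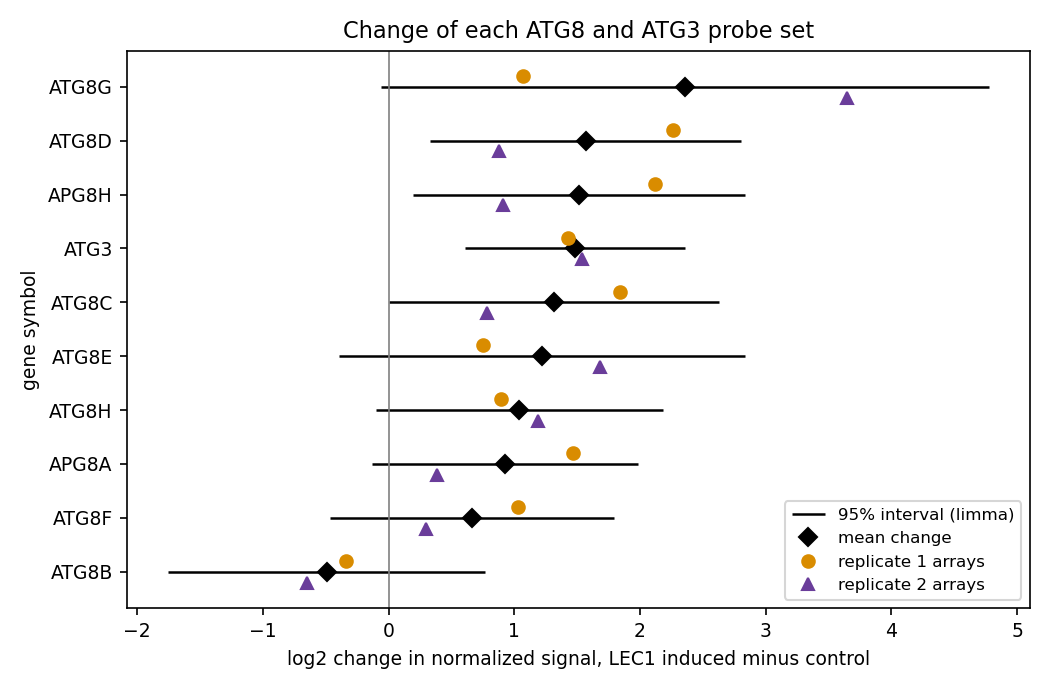
Log2 change in normalized signal, LEC1 induced minus control, for each probe set: diamonds are the mean changes, lines the 95% intervals of limma, circles the difference between the arrays numbered 1 and triangles that between the arrays numbered 2. The 2 differences nearly coincide for ATG3, at 1.43 and 1.53, and lie furthest apart for ATG8G, at 1.07 and 3.65.

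The replicates of both groups differed in the same direction for every member. Replicate 1 was above replicate 2 in LEC1 induced seedlings and also in controls for 10 of 10 members after quantile normalization, and likewise under median centring and without normalization. Over all probe sets tested, 28.9% had replicate 1 above replicate 2 in both groups after quantile normalization, 29.2% under median centring and 68.4% without normalization. The median difference between the replicates of the members was 1.09 on the log2 scale in LEC1 induced seedlings and 0.54 in controls, against -0.06 in LEC1 induced seedlings and -0.01 in controls over all probe sets tested. The median SD within groups was 0.70 for the members and 0.35 over all probe sets tested. The labels do not say what the replicate numbers share.

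**Figure D3:**
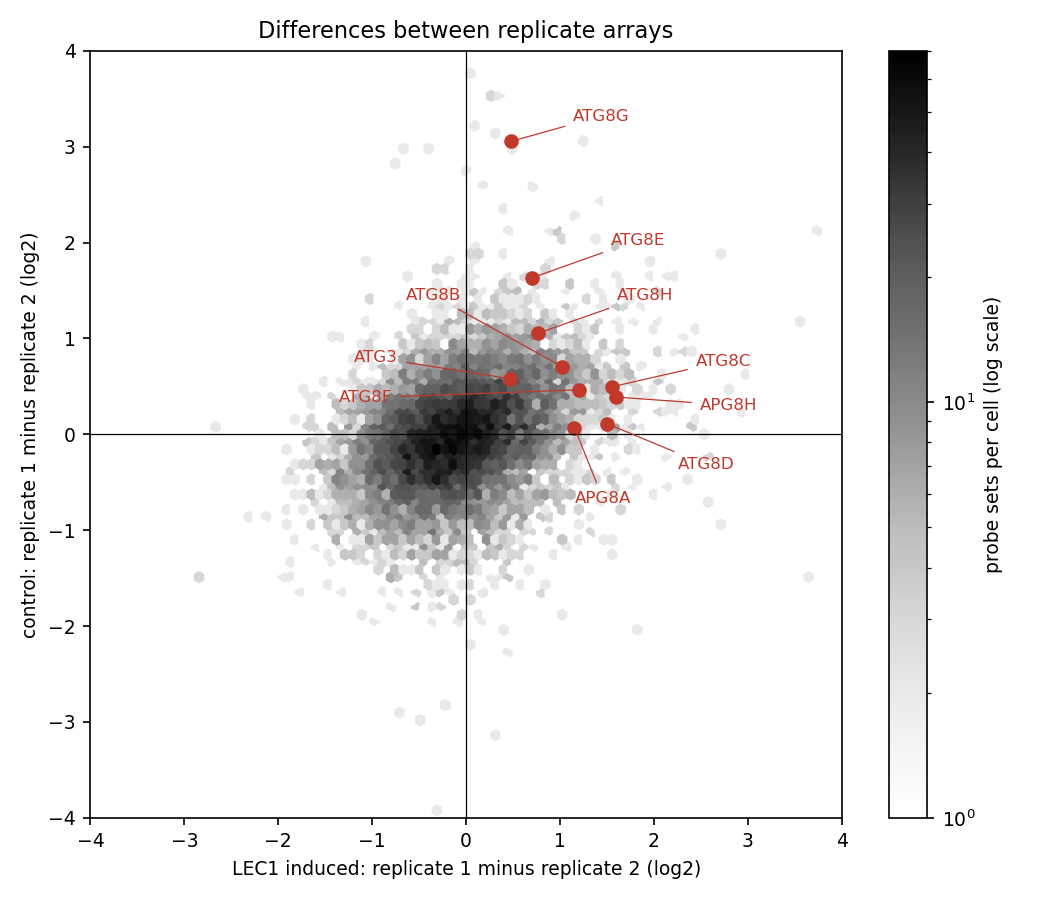
Difference in log2 normalized signal between replicate 1 and replicate 2, in LEC1 induced seedlings on the horizontal axis and in controls on the vertical axis, for all probe sets tested (grey cells, darker with more probe sets) and the 10 members (red). All 10 members lie to the upper right of the origin, and 133 probe sets lie beyond the axis limits of 4.

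The members did not share 1 pattern of replicate spread. ATG8D, APG8H, ATG8C, APG8A and ATG8F had the larger change between the arrays numbered 1, as with 2.26 and 0.87 for ATG8D and 2.12 and 0.91 for APG8H (arrays numbered 1, then 2). ATG8G, ATG8E and ATG8H had the larger change between the arrays numbered 2, as with 0.75 and 1.68 for ATG8E. The changes were 0.89 and 1.19 for ATG8H, 1.43 and 1.53 for ATG3 and -0.34 and -0.65 for ATG8B, which lay closer together than those of ATG8E. Because replicate 1 was above replicate 2 in both groups, the same values put most of the spread of the first 5 genes in the induced arrays. They put most of that of ATG8G, ATG8E and ATG8H in the controls, so this is no separate result.

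Single arrays decided whether members passed. Without LEC1 induced replicate 2, 5 of 10 members passed as higher, against 5.24% of all probe sets tested, namely ATG8D (log2 change 2.31, limma adjusted p = 0.00768), APG8H (2.31, 0.00661), ATG8C (2.09, 0.0145), ATG3 (1.72, 0.0331) and APG8A (1.503, 0.0369). In that fit the lone induced array is assumed to vary like the controls. Without LEC1 induced replicate 1, the same 5 changes were 0.82, 0.71, 0.54, 1.24 and 0.35 in that order. ATG3 was the member that moved least in these fits, from 1.19 without control replicate 2 to 1.77 without control replicate 1. The change of ATG8F was 0.064 without LEC1 induced replicate 1, and that of ATG8G ranged from 0.83 without control replicate 2 to 3.88 without control replicate 1. When the fit took the replicate number as a block, a pairing that the labels do not describe, 5 of 10 members passed as higher, against 8.16% of all probe sets tested.

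**Figure D4:**
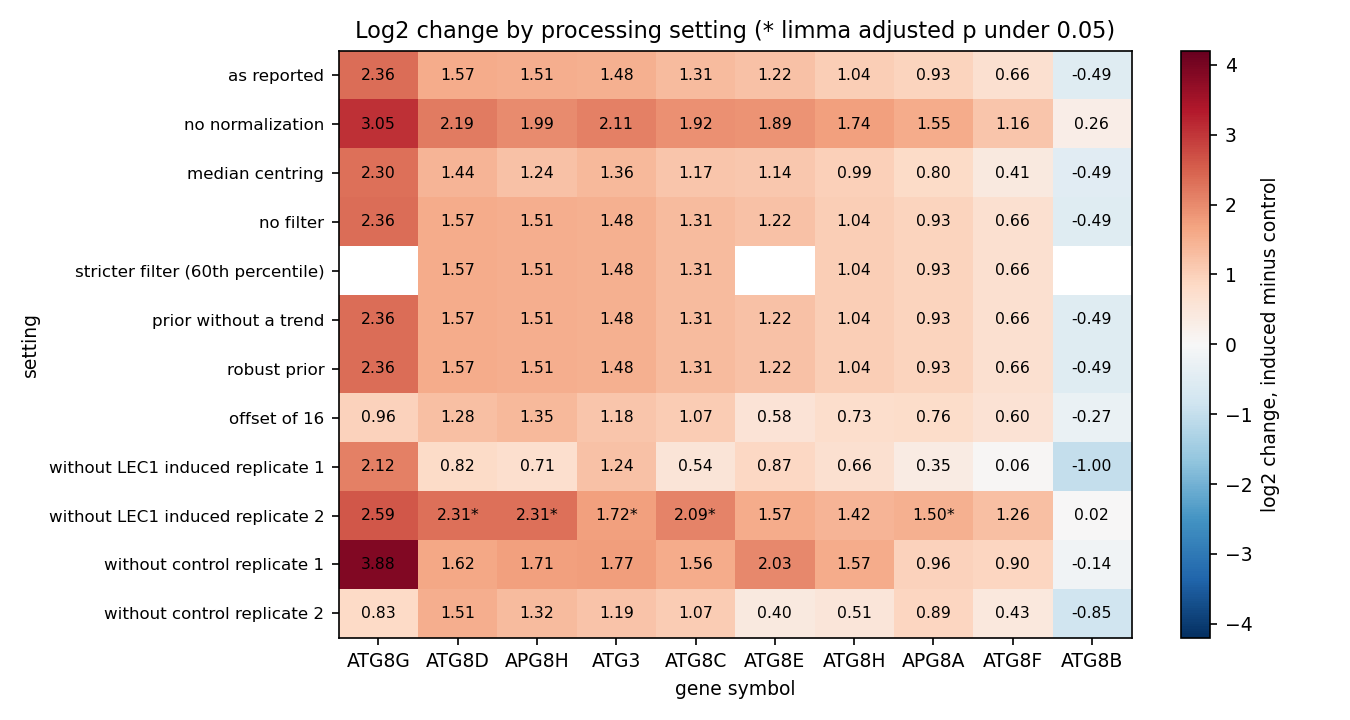
Log2 change, LEC1 induced minus control, of each probe set (columns) as reported and under 11 alternative settings in limma (rows, without the replicate block), with red for higher and blue for lower in LEC1 induced seedlings. Among the rows drawn, stars for a limma adjusted p under 0.05 stand in that without LEC1 induced replicate 2, and blank cells are probe sets that the stricter filter removed.

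The rest of the autophagy machinery was sparsely named on this array. The 41 listed loci covered the conjugation cascade, the ATG1 kinase complex, the ATG9, ATG2 and ATG18 group and the PI3 kinase complex. They also covered ATG8-binding cargo receptors, listed together with UFL1 (AT3G46220). Of the 41, 12 had a probe set naming the gene alone and 9 were measured. None of the 9 passed in limma, against 5.74% of all probe sets tested. At an unadjusted p under 0.05 in limma there was 1, UFL1, against 26.5%. The methods' t-test also called 0, against 2.74% at a false discovery rate of 0.2. All 9 had a higher mean in LEC1 induced seedlings and their median change was 0.57 on the log2 scale, and in 7 of 9 both induced arrays lay above both control arrays, against 29.3% of all probe sets tested. The median of the 10 ATG8 and ATG3 changes was 1.27, and this difference was not tested.

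By group, 2 of 8 listed loci of the conjugation cascade were measured, AT5G50230 (log2 change 0.32 ± 0.31 SE, signal 58.0 in LEC1 induced seedlings and 46.4 in controls) and AT3G59950 (0.11 ± 0.31 SE). Of 8 listed for the ATG1 kinase complex, which starts autophagosome formation, 4 were measured, with changes from 0.52 to 0.83, taking the brighter of 2 probe sets of AT2G37840, whose other probe set had 0.08. The highest was that of AT5G66930 (ATG101), and the brightest was AT3G61960, with a signal of 70.9 in LEC1 induced seedlings and 47.8 in controls. In the PI3 kinase group AT2G32760 was the 1 measured locus of 6 (0.18 ± 0.33 SE). Of the 9 loci in the list of cargo receptors and UFL1, 2 were measured. AT3G46220, which is UFL1, had 83.5 in LEC1 induced seedlings and 34.9 in controls (1.26 ± 0.33 SE, limma adjusted p = 0.0791). The cargo receptor locus AT5G06830 had a log2 change of 0.89 ± 0.39 SE (limma adjusted p = 0.212). The ATG9, ATG2 and ATG18 group of 10 loci had no probe set naming 1 of them alone.

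Few loci of the signalling above autophagy were measured, and none was called. TOR is the kinase that holds autophagy back in fed cells, and SnRK1 acts when energy is low. Of 10 listed loci of the 2 groups 4 were measured, and the loci of TOR, KIN10, KIN11 and SNF4 were not. Of the 4 measured, 0 passed in limma, against 5.74% of all probe sets tested. At an unadjusted p under 0.05 there were 0, against 26.5% of all probe sets tested. The brightest was AT4G16360 (KINbeta2), with a signal of 129 in LEC1 induced seedlings and 218 in controls (log2 change -0.75 ± 0.38 SE). AKINBETA1, a SnRK1 subunit, had 110 in LEC1 induced seedlings and 104 in controls. The TOR partners RAPTOR1 and RAPTOR2 had log2 changes of 0.03 ± 0.31 SE and -0.34 ± 0.37 SE. Of 13 listed genes of other ubiquitin-like modifiers and their conjugating enzymes, 2 were measured. Of these, 0 passed, against 5.74% of all probe sets tested, and the brighter was AT1G27530 (0.68 ± 0.37 SE). None of the 12 listed carbon starvation and senescence genes was named alone on the array.

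Vacuolar proteases break down what reaches the vacuole, and 6 of 9 listed were measured. Of the 6, 5 had a higher mean in LEC1 induced seedlings, against 49.99% of all probe sets tested. In limma 2 passed as higher, against 2.83% of all probe sets tested. BETA-VPE, a processing enzyme of seed storage proteins, had a mean signal of 1466 in LEC1 induced seedlings and 124 in controls (log2 change 3.57 ± 0.33 SE, limma adjusted p = 0.00501). The listed locus AT1G62290 had 3649 in LEC1 induced seedlings and 166 in controls (4.46 ± 0.27 SE, limma adjusted p = 7.03e-04). The standard errors of these 2 changes were smaller than those of all 10 ATG8 and ATG3 changes, which ran from 0.36 to 1.00.

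The genes with the most similar signal profile were taken as the 2 probe sets nearest to each member in Euclidean distance over the 4 arrays, with log2 signals centred on their own mean. For ATG3 these were AT2G34730 at a distance of 0.073 and AT1G48160 at 0.098, for ATG8D IVD at 0.24 and AT4G14385 at 0.25, and for APG8H AT1G22180 at 0.16 and AT5G62620 at 0.21. AT1G22180 was also the nearest to ATG8C (0.18), followed by NRPB6A (0.23). For ATG8E they were ATGP4 (0.13) and AT1G15230 (0.19), for ATG8H CUTA (0.13) and AT5G05710 (0.14), for APG8A AT5G23520 (0.12) and VPS2.1 (0.14), and for ATG8F AT3G01350 (0.10) and AT2G31490 (0.11). ATG8B was nearest to AT3G52870 (0.0071) and AT2G27260 (0.051), and ATG8G to AT4G30400 (0.29) and AT3G62620 (0.46). No member was among the called probe sets, and neither was any of these neighbours, whose limma adjusted p-values ran from 0.0811 to 0.554. The neighbours were picked for a change and spread close to those of a member, so this is no separate result. With 4 arrays, close profiles arise among many of the 14433 probe sets.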

How the data were processed

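The deposited table holds 1 linear signal intensity per probe set and array of the Affymetrix ATH1 platform, and MAS5 is named in the submitters' processing notes. Labelled RNA was made by a 2-cycle protocol, per the labels' protocols. Not given in the sources used here are the scaling target, the detection calls and the genome build, so gene positions are not printed. From the 22810 rows, 64 array controls were left out. Values under 0.1 (8 values) were set to 0.1, and log2 signals were quantile normalized, since the array medians differed. The filter kept a probe set that exceeded its array's 40th percentile on 2 or more arrays. Of the probe sets, 13513 named 1 gene (13436 with a locus in TAIR10.1), several genes were named by 503, and 8730 had no name here.

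The comparison used limma 3.58.1 under R 4.3.3 (mean-variance trend, two-sided), fitted on all kept probe sets and checked on simulated data. The simulation gave all probe sets the same noise, below the pooled noise of the arrays, and changes larger than those of the members. It therefore does not show how well changes of the members' size are found. There were 2 residual degrees of freedom, to which the prior added 4.39. Only 4 arrays limit the precision. Cross-hybridization between paralogues was not tested. Named genes were the members, called genes of each list or else its brightest measured gene, and the 2 nearest profiles per member; further list members were named after their values were seen. Members and lists were chosen with earlier results of these data known, and list membership comes from general knowledge, not from the annotation. The 5 ATG8 genes listed apart as paralogues proved to be members. Alternatives changed the normalization, filter, prior, offset, test, arrays and replicate block. The numbers do not establish pairs. Deviations of same-numbered arrays from their group means correlated at 0.31 across probe sets.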

Additional observations from a re-analysis of the deposited data

How the results depend on the processing

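Of 137 comparisons of an ATG8 or ATG3 change with an alternative, 125 kept direction and call, 10 passed only under the alternative and 2 turned in sign, both for ATG8B (0.26 without normalization, and -1.004 to 0.016 when single arrays were left out). Direction could turn in the 137 only where the normalization, offset or arrays changed. The filter, prior, t-test and block alternatives left each log2 change as it was. The t-test entered the 137 at both of its thresholds, with the same values. With the replicate block, 5 of 10 members passed as higher, against 8.16% of all probe sets tested. They were ATG8D (1.57, limma adjusted p = 0.0326), APG8H (1.51, 0.0297), ATG3 (1.48, 0.0143), ATG8C (1.31, 0.0392) and ATG8H (1.04, 0.0494). The block also gave 1 call among the 9 other autophagy genes, AT3G46220 (UFL1, log2 change 1.26, limma adjusted p = 0.0250). Leaving out single arrays gave 0 to 5 members called, with changes of 0.82 to 2.31 for ATG8D, 0.71 to 2.31 for APG8H, 1.19 to 1.77 for ATG3, 0.54 to 2.09 for ATG8C, 0.35 to 1.503 for APG8A and -0.018 to 0.24 for AT3G59950, whose sign thus turned. Over all probe sets, the 828 calls became 1409 under median centring, 381 with no trend in the prior, 2583 with the replicate block, 2 in the methods' t-test and 396 in it at a false discovery rate of 0.2, and 136 to 1935 without single arrays. The stricter filter kept 7 of the 10 members, and 0 passed, against 9.23% of the probe sets it kept. An offset of 16 before log2 brought ATG8G to 0.96. The cause of these shifts was not tested. ATG8B, ATG8E and ATG8G had an array under the dim limit, which limits how well their changes are measured.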
